A study of Mus musculus with 6 samples.

Results

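ATP-binding cassette (ABC) transporters were taken as every gene that the deposited table annotates as protein-coding and whose symbol is Abc, a letter from a to g and a number. This gave 46 of the 28262 listed genes, in subfamilies A (16 genes), B (9), C (9), D (4), E (1), F (3) and G (4). RNA-seq had been made from Sertoli cells, the somatic nurse cells of the seminiferous tubule, isolated from 20-day-old C57BL/6 mice, with 3 libraries per genotype and no treatment. The control libraries, labelled PA1flox/flox, carried floxed Pa1 alleles (Pa1 F/F below). The libraries labelled PA1-/- came from Amh-pa1-/- mice, which carry the same floxed alleles and express Cre from the promoter of Amh, so that the deletion is limited to cells in which that promoter has been active. Pa1 encodes a subunit of the MLL3/4 histone methyltransferase complex. Pa1 itself was not analysed here, and genotypes are those of the labels. The cells were kept in culture and unattached germ cells were washed off before RNA extraction.

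Most ABC proteins use ATP to move a substrate across a membrane, and most of those found in mammals export it. Members of the A and G subfamilies move sterols and phospholipids, B and C members include the pumps that expel drugs and their conjugates, and D members bring fatty acids into peroxisomes or lysosomal cobalamin into the cytosol. E and F members have no membrane-spanning part and act on ribosomes. In the testis, ABC pumps of the capillaries, the peritubular cells and the Sertoli cells restrict the entry of drugs, and Sertoli cells also handle large amounts of lipid from the germ cell remnants that they engulf.

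Of the 46 genes, 34 passed the filter on low counts and were tested. The other 12 had at most 6 counts in any library and are listed here without a comparison. They were Abca8a, Abca14, Abca15, Abca16 and Abca17, the canalicular lipid and bile salt pumps Abcb4 and Abcb11, Abcb6, the conjugate pump Abcc2, the sulfonylurea receptor Abcc8, Abcc12, and Abcg8, which forms the sterol transporter of the liver and intestine together with Abcg5. Total counts on genes lay between 13203757 and 16231443 per library, and a count of 3 equalled between 0.185 and 0.227 CPM, the count relative to library size. Some replicates were far closer than others, with a coefficient of variation above that of counting alone of 3.59% between Pa1 F/F replicates 1 and 3 and 2.41% between Amh-pa1-/- replicates 1 and 2, as compared with 18.4% to 22.1% for the other pairs of a genotype. The study calls the samples biological replicates, but the labels do not say whether the libraries of a genotype came from separate animals or cultures, and p-values measure the spread between these libraries, which may be technical. Below, a normalized count is a count divided by the effective library size (TMM) and multiplied by the mean of these sizes, and RPKM is the same value per kilobase of the canonical transcript, scaled to a common depth. Values of a genotype are given in the order of replicates 1, 2 and 3.

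The labelled cell type was checked with marker genes. All 18 Sertoli cell markers exceeded 3 counts in at least 1 library, though Trf reached at most 6 and Rhox5 at most 16, and neither was tested. The 18 had a summed normalized count of 304508 to 320921 in control and 195105 to 258153 in knockout libraries, mostly that of Clu. Of the 16 tested, 1 was lower (Inha, log2 fold change -1.23) and 1 higher (Cst9, 2.85) past both thresholds, and 5 were lower and 2 higher at the adjusted p alone. Of all tested genes, 6.56% were lower and 5.44% higher past both thresholds, and 17.1% and 18.2% at the adjusted p alone. Markers of other cells moved with genotype. Of the 11 tested macrophage markers 8 were lower in Amh-pa1-/- cells, Lyz2 falling from 455.8 to 47.4 normalized counts and Adgre1 from 33.4 to 3.15, although the sum of all 13 markers on the list lay between 3402 and 5700 in control and between 4161 and 6117 in knockout libraries. All 4 tested Leydig cell markers were lower, and the sum of the 8 on the list was 11793 to 13517 against 2452 to 4305, while the Leydig markers Cyp17a1 and Insl3 had at most 3 counts in any library. The 6 peritubular myoid cell markers summed to 3264 to 4164 against 12179 to 18639, mostly through Acta2, which alone of 5 tested was called, higher. Myh11, Des and Actg2 were below all control libraries in Amh-pa1-/- replicates 1 and 2 and above them in replicate 3, where Myh11 had 1605 normalized counts as compared with 215.7 and 164.5. Of 8 listed endothelial cell markers, Emcn and Cldn5 had at most 3 counts, Pecam1 fell from 56.4 to 17.0 and the sum was 1713 to 1794 against 942.9 to 1491, with 1 of 4 tested called lower and 1 (Vwf) higher. The 7 fibroblast markers summed to 53216 to 66279 against 32161 to 60362, with 1 of 6 tested called, lower. Of germ cell markers, 3 of 4 tested spermatogonial genes were lower, no spermatocyte gene (2 tested) and no spermatid gene (1 tested) was called by edgeR (0 at an unadjusted p under 0.05; 1 spermatocyte gene lower with DESeq2, 0 with limma-voom), and 9 of the 22 listed had at most 3 counts. Of the marker calls, Vwf, the Sertoli genes Clu and Aard, the Leydig gene Fabp3 and the spermatogonial gene Ddx4 each lost theirs at the adjusted p of edgeR when any of 4 of the 6 libraries was left out (0.0533 to 0.128). The fibroblast genes Col3a1 and Dpt, lower at the adjusted p alone, lost their calls when any of 5 libraries (0.0717 to 0.102) and any of 2 (0.0547 and 0.0563) was left out. The fibroblast gene Pdgfra fell under the fold threshold without Amh-pa1-/- replicate 1 (-1.0) or 2 (-0.94). The macrophage genes Adgre1, C1qc, Ptprc and Tyrobp and the spermatogonial genes Kit and Ddx4 passed the filter on low counts through control libraries only. Vwf passed it through knockout libraries only, so these calls are not separate from the filter. In RNA from a cell population, fewer cells of a type and less RNA per cell cannot be told apart, and the part of these cells in the values of the ABC genes was not tested.

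In Pa1 F/F cells the family was led by few genes. On the RPKM scale, Abca1 stood highest at 87.3 ± 1.37 (SD, n = 3), followed by Abcd3 at 76.4 ± 4.41, Abcf1 at 48.8 ± 1.79, Abce1 at 37.5 ± 1.12 and Abcc1 at 30.8 ± 2.55. These 5 held 62.3% of the summed RPKM of the 46 genes, and the 5 highest in Amh-pa1-/- cells held 61.1%. Each of these neighbours in the order was separated by more than its spread in control cells, whereas Abcf2 (22 ± 1.56), Abcc5 (20.9 ± 1.25) and Abcf3 (19.5 ± 0.796) each differed from the next, the last of them from Abcb10 (18.1 ± 1.64), by less than their SDs together. Levels over 10 RPKM were reached by 12 members in control and by 10 in knockout cells, and levels over 1 RPKM by 26 and 25. In Amh-pa1-/- cells Abcd3, at 79.4 ± 5.89 RPKM, took the first place and Abca1, at 47.8 ± 0.723 RPKM, ranked 3 just after Abcf1 at 49.2 ± 1.71 RPKM. Abca1 held 19.4% of the summed RPKM of the family in control and 12.1% in knockout cells. The drug pumps changed places further down: Abcb1b went from rank 12 to 24, Abcb1a from 19 to 27 and Abcg2 from 21 to 12.

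**Figure D1:**
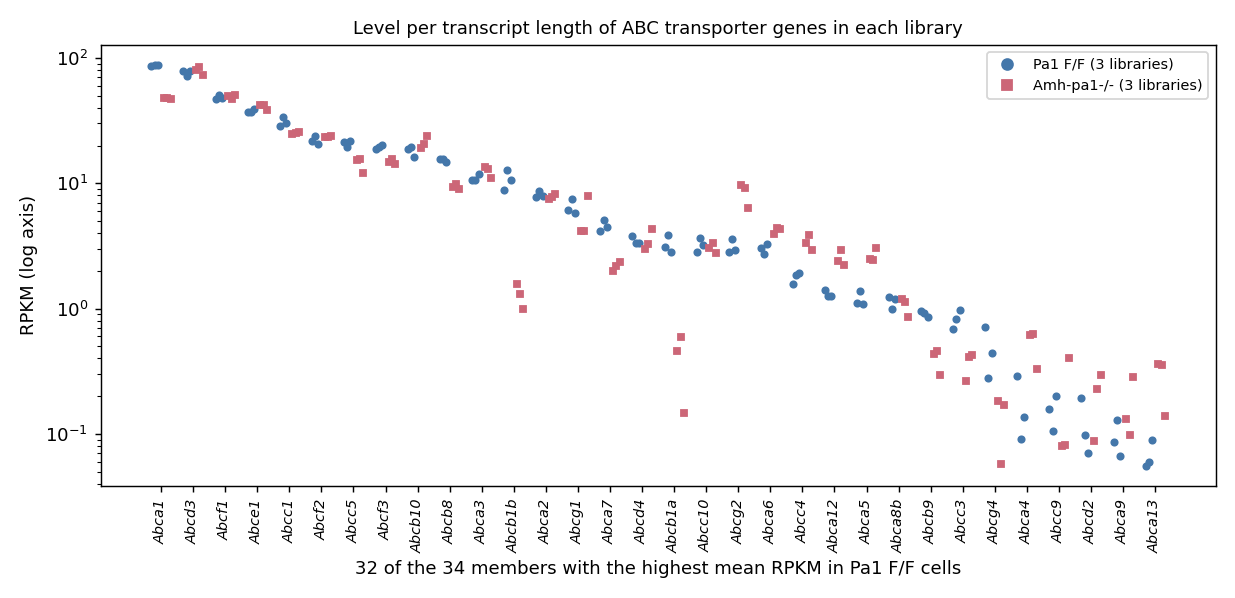
Level of 32 of the 34 highest ABC transporter genes in each library, in RPKM on a log axis, ordered by the mean of the Pa1 F/F libraries, with circles for the 3 Pa1 F/F and squares for the 3 Amh-pa1-/- libraries. Abca1 drops from 87.3 to 47.8 RPKM, and Abcb1b and Abcb1a leave their neighbours downward while Abcg2 leaves them upward.

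Genotypes were compared with edgeR's quasi-likelihood test over all 14919 genes that passed the filter, with Benjamini-Hochberg adjustment over all of them. With an adjusted p under 0.05 and a log2 fold change of 1 or more in size, 6 of the 34 tested ABC genes (17.6%) were lower in Amh-pa1-/- cells, as compared with 6.56% of all tested genes, and 4 (11.8%) were higher, as compared with 5.44%. The 6 lower genes were Abcb1a, Abcb1b, Abcb9, Abca7, Abcc3 and Abcg4, and the 4 higher genes were Abca4, Abca5, Abca13 and Abcg2. With the closest pair of libraries of each genotype summed, 3 (Abca7, Abcb1a and Abcb1b) were lower and 2 (Abca5 and Abcg2) higher. At the adjusted p alone, 11 (32.4%) were lower against a background of 17.1% and 7 (20.6%) were higher against 18.2%. The normalized counts of the genotypes did not overlap for 18 of the 34 (52.9%), as compared with 52.4% of all tested genes, which is close to the background. The median log2 fold change of the 34 was 0.01, as compared with 0.00 over all tested genes. For a single gene the exact two-sided permutation test of 3 against 3 libraries cannot give less than 0.1, which was its value for each of those 18 genes.

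Counts per subfamily are given here, and whether subfamilies differ was not tested. Of all tested genes, 6.56% were lower and 5.44% higher past both thresholds, and 17.1% and 18.2% at the adjusted p alone. Of the 11 tested A genes, 1 was lower and 3 were higher past both thresholds, and 2 were lower and 5 higher at the adjusted p alone, with a median log2 fold change of 0.48. Of the 6 tested B genes, 3 were lower past both thresholds, and 4 were lower at the adjusted p alone, with a median of -0.95. Of the 6 tested C genes, 1 was lower past both thresholds, and 3 were lower and 1 higher at the adjusted p alone. Of the 4 D genes and the 1 E gene, 0 passed by edgeR at an adjusted or an unadjusted p under 0.05 or at the adjusted p of DESeq2 or limma-voom, and 1 of 3 F genes (Abcf3) was lower at the adjusted p alone. Of the 3 tested G genes, 1 was lower and 1 was higher. Summed within a subfamily, RPKM values went from 118.1 to 82 for A, from 52 to 37.9 for B and from 57.8 to 46.6 for C, whereas D went from 85.2 to 87.9, E from 37.5 to 40.5, F from 90.2 to 87.6 and G from 10 to 13.9.

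**Figure D2:**
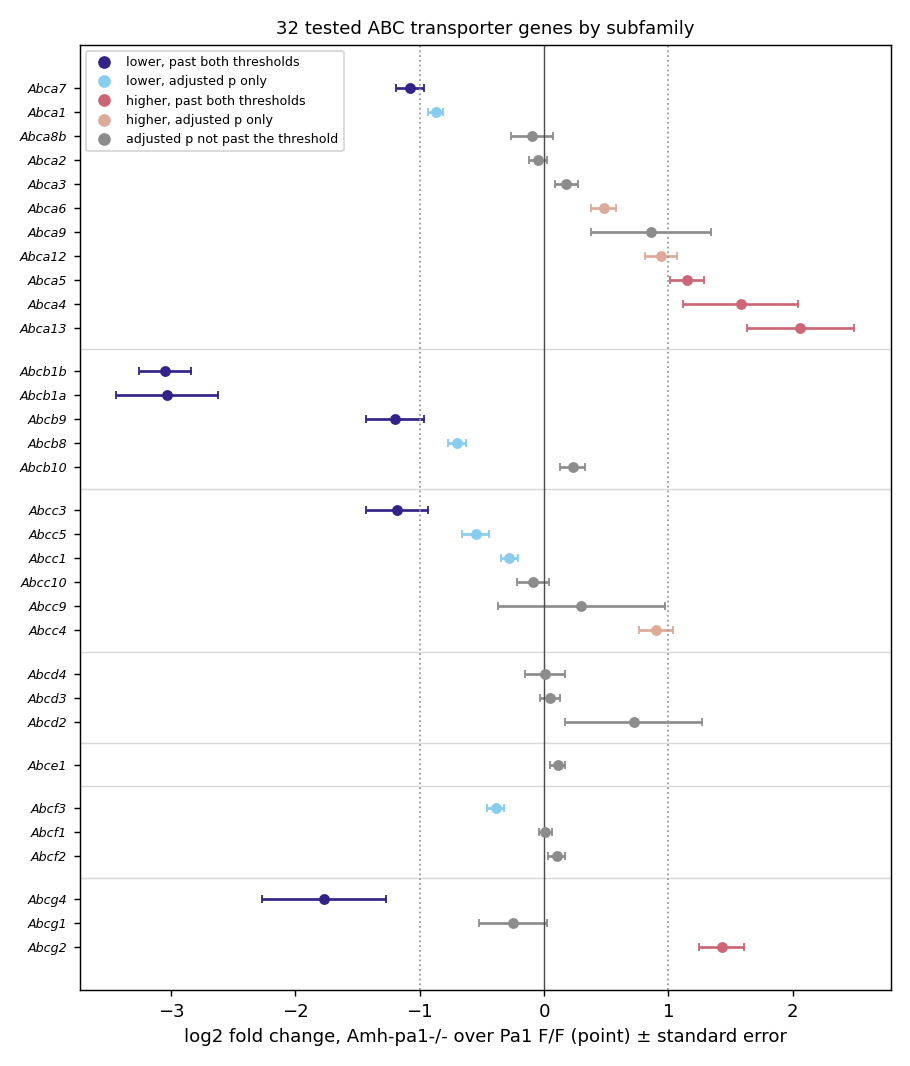
Log2 fold change of Amh-pa1-/- over Pa1 F/F cells for 32 of the 34 tested ABC transporter genes, grouped by subfamily from A at the top to G at the bottom, with the standard error as bar and colours for the test result. Abcb1a and Abcb1b lie farthest to the left at -3.03 and -3.05, while the plotted D, E and F genes lie between -0.39 and 0.72.

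Among the drug pumps, both mouse genes for P-glycoprotein fell and the gene for the breast cancer resistance protein rose. P-glycoprotein exports a wide range of hydrophobic drugs and is divided between Abcb1a and Abcb1b in the mouse, where humans have 1 gene. Abcb1b (ENSMUSG00000028970, GRCm38 chr5:8798147-8866315, plus strand) had 591.7, 862.7 and 716.3 normalized counts in control libraries and 106.4, 87.9 and 67.1 in knockout libraries. Abcb1a (ENSMUSG00000040584, chr5:8660077-8748575, plus strand), its neighbour upstream, had 230.2, 284.7 and 210.8 against 34.2, 43.9 and 11.0. Every knockout library lay far below every control library for both genes. Abcb1b was 8.30-fold lower (log2 fold change -3.05 ± 0.21, SE, adjusted p = 0.000208 by edgeR), going from 10.8 to 1.30 RPKM. Abcb1a was 8.14-fold lower (-3.03 ± 0.41, adjusted p = 0.00217 by edgeR), going from 3.26 to 0.400 RPKM. Both calls were kept with each library left out in turn, with log2 fold changes between -3.22 and -2.89 for Abcb1b and between -3.39 and -2.63 for Abcb1a.

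The pair share sequence, and how the counting treated reads that fit both could change the split. Of all stretches of 100 bases in the canonical transcript of Abcb1a, 7.41% also occur in that of Abcb1b, and 8.2% the other way around. The sum of both, which does not depend on the split but lacks any reads dropped as ambiguous, was 821.9, 1147 and 927.1 normalized counts in control and 140.6, 131.8 and 78.2 in knockout libraries, 8.26-fold lower. The ratio of Abcb1b to Abcb1a counts was 3 ± 0.414 in control and 3.74 ± 2.11 in knockout cells. In the knockout the ratio ranged from 2 to 6.09, on few Abcb1a counts. The remaining gene of this block on chromosome 5, Abcb4, a phosphatidylcholine floppase of the liver, was among the 12 genes with almost no reads.

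Abcg2 (ENSMUSG00000029802, GRCm38 chr6:58584523-58695676, plus strand) encodes the breast cancer resistance protein, which exports drugs, urate and porphyrins and overlaps P-glycoprotein in many substrates. It had 223.8, 282.7 and 234.9 normalized counts in control and 770.2, 721 and 504 in knockout libraries. All knockout libraries lay above all control libraries, with replicate 3 the lowest of the knockout. The gene was 2.69-fold higher (log2 fold change 1.43 ± 0.18, adjusted p = 0.00173 by edgeR), going from 3.12 to 8.39 RPKM, and stayed called with each library left out in turn, at log2 fold changes between 1.31 and 1.59. Since Abcb1b fell while Abcg2 rose, the ratio of Abcg2 to Abcb1b counts within a library went from 0.345 ± 0.0291 (SD, n = 3) to 7.65 ± 0.499, with 0.328 to 0.378 in control and 7.24 to 8.21 in knockout libraries.

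**Figure D3:**
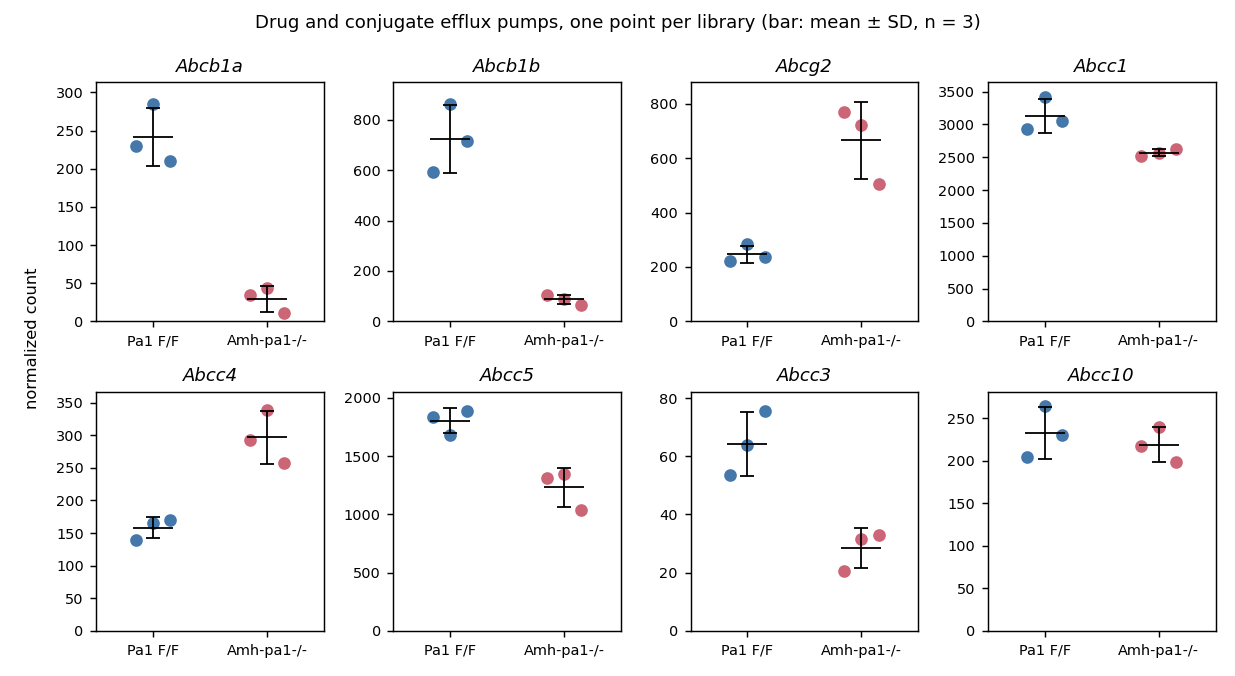
Normalized counts of 8 genes for drug and conjugate pumps, 1 point per library, with the mean and SD of the 3 libraries of each genotype and axes from 0. Abcb1a and Abcb1b lie 8.14-fold and 8.30-fold lower in Amh-pa1-/- cells and Abcg2 2.69-fold higher, while the points of Abcc10 overlap.

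Abcb1b and Abcb1a had the largest drops, too close to each other to be ranked. Abcg2 had the largest rise among the drug pumps, and Abca1 was the most abundant member in control cells. The 250 bases before the start of Abcb1b, Abcg2 and Abca1 are shown. They come from RefSeq (GRCm38.p6), are written 5′ to 3′ on the strand of the gene, and run over chr5:8797897-8798146 for Abcb1b (plus), chr6:58584283-58584532 for Abcg2 (plus) and chr4:53159896-53160145 for Abca1 (minus). Capitals mark a GC box (GGGCGG) or a CCAAT box (CCAAT, or ATTGG for the other strand).
Abcb1b: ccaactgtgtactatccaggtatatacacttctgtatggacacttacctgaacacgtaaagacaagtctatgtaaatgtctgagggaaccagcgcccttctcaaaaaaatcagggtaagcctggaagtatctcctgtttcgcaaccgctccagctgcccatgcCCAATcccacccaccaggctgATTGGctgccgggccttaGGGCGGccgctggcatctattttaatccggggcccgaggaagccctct
Abcg2: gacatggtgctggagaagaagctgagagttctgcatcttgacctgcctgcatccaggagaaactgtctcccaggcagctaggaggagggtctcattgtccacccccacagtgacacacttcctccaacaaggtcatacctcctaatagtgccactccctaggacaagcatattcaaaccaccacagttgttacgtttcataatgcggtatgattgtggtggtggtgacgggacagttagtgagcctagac
Abca1: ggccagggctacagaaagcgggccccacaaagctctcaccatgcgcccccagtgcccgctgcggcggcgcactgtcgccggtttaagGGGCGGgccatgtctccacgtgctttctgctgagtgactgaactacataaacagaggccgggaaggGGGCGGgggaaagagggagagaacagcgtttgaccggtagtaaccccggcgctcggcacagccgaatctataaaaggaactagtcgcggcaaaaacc
The Abcb1b window holds 2 CCAAT boxes, which begin 87 and 66 bases before the start, and 1 GC box 48 bases before it. The Abca1 window holds 2 GC boxes, 163 and 97 bases before the start. RefSeq has 3 windows for Abcg2, and the one shown, whose start lies 10 bases from that of the deposited table, holds none of the motifs searched. The other windows of Abcg2, which are not shown, hold 2 and 4 GC boxes. The RefSeq start of Abcb1a lies 92986 bases from that in the deposited table, and its window is not shown.

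Of the 46 genes, 35 matched the RefSeq table, with 42 windows of 250 bases. A GC box on either strand was present in 19 of the 42 (45.2%), as compared with 32.7% of all 32851 windows in the table, and a CCAAT box in 13 (31%), as compared with 33.8%. The letters of an AP-1 site (TGANTCA) were present in 0 of 42 windows and in 6.75% of all. The DR4 element, a direct repeat through which liver X receptors act, was present in 0 of 42 and in 0.0152% of all. The GC and CCAAT boxes were added to the search after the data had been seen. Imperfect copies were not searched for, so the absence of these letters says nothing of such copies within the windows or of sites elsewhere.

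The pumps of the C subfamily export conjugates, organic anions and nucleotides, and they moved in both directions. Abcc1, which exports glutathione conjugates and leukotriene C4 and was the highest C gene, had 2923, 3422 and 3050 normalized counts in control and 2521, 2571 and 2620 in knockout libraries. It was 1.22-fold lower (log2 fold change -0.28 ± 0.07, adjusted p = 0.0189 by edgeR), a small difference that no longer passed without Pa1 F/F replicate 3 (adjusted p = 0.0528) or without Amh-pa1-/- replicate 1 (0.0708) or 2 (0.0692). Abcc5, an exporter of cyclic nucleotides and other anions, had 1836, 1683 and 1891 against 1311, 1346 and 1037, and was 1.46-fold lower (-0.55 ± 0.11, adjusted p = 0.00857 by edgeR, and 0.0848 with the closest pairs summed). Abcc3, a basolateral pump for glucuronides, had 53.5, 63.9 and 75.5 against 20.5, 31.5 and 33.1. It was 2.27-fold lower (-1.18 ± 0.25, adjusted p = 0.012 by edgeR), and the call was lost without Pa1 F/F replicate 3 (adjusted p = 0.0505) and, through its fold (-0.98), without Amh-pa1-/- replicate 1.

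Abcc4, which exports cyclic AMP, prostaglandins and urate, went the other way. It had 139.5, 165.6 and 169.9 normalized counts in control and 292.8, 339.1 and 257.5 in knockout libraries, and was 1.87-fold higher (log2 fold change 0.90 ± 0.14, adjusted p = 0.00359 by edgeR), under the fold threshold. For 2 further C genes the genotypes overlapped. Abcc10 averaged 232.6 and 218.7 normalized counts, and 51 bases of it overlap Dlk2 on the other strand. Abcc9, the sulfonylurea receptor of vascular potassium channels, had 17.2, 11.6 and 22 against 8.79, 9.01 and 44.1. The last value came from the knockout library with the highest sum of peritubular myoid markers, 18639. Knockout replicates 1 and 2 also had sums above those of all control libraries, at 12679 and 12179. A link to these cells was not tested.

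Among the sterol and phospholipid exporters, Abca1 and Abca7 fell. Abca1 (ENSMUSG00000015243, GRCm38 chr4:53030787-53159895, minus strand) hands cholesterol and phospholipid to lipid-poor apolipoproteins and is the first step in the formation of high-density lipoprotein. It had 12942, 13257 and 13329 normalized counts in control and 7273, 7293 and 7095 in knockout libraries. The libraries of each genotype were tightly grouped and far apart from the other genotype. Abca1 was 1.82-fold lower (log2 fold change -0.87 ± 0.06, adjusted p = 0.000177 by edgeR), with -0.88 to -0.85 when single libraries were left out, and so passed the adjusted p but not the fold threshold. It was the highest A gene by far, and its 87.3 and 47.8 RPKM stood within subfamily sums of 118.1 and 82.

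Abca7 (ENSMUSG00000035722, chr10:79996494-80015572, plus strand) is the closest relative of Abca1, acts on phospholipids and takes part in phagocytosis. It had 416.8, 509.3 and 448.9 normalized counts in control and 198.2, 216.3 and 235.5 in knockout libraries, 2.12-fold lower (log2 fold change -1.08 ± 0.11, adjusted p = 0.000888 by edgeR). Without Pa1 F/F replicate 2 its log2 fold change was -1.0 and fell just short of the fold threshold. Both genes are also expressed in macrophages, of whose 11 tested markers 8 were lower, while Mrc1 (984.4 and 1109 normalized counts) and Mpeg1 (2231 and 3593), which made up most of the sum, did not pass. Abca2, a lysosomal and endosomal relative, had 920.6, 1031 and 953.4 against 900, 933.9 and 973.9 normalized counts, and Abca3, which loads surfactant phospholipid into lamellar bodies, averaged 1059 and 1199 (log2 fold change 0.18 ± 0.09, adjusted p = 0.183 by edgeR).

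Abcg1 and Abcg4 pass sterol on to mature lipoprotein particles. Abcg1, the highest G gene in control cells, had 521, 641 and 499.2 normalized counts in control and 357.3, 354.9 and 681.3 in knockout libraries. Knockout replicates 1 and 2 lay below all control libraries and replicate 3 above them all, and the gene did not pass (log2 fold change -0.25 ± 0.27, adjusted p = 0.499 by edgeR). Without Amh-pa1-/- replicate 3 its log2 fold change was -0.63 with an adjusted p of 0.00587 by edgeR. That fit keeps only knockout replicates 1 and 2, the closest pair, so its p may reflect technical spread. It cannot show which knockout libraries are typical. Abcg4 had 41.7, 16.5 and 26.2 against 10.7, 3.38 and 10 normalized counts, a log2 fold change of -1.77 ± 0.50 (adjusted p = 0.0329 by edgeR). This call rests on few counts and was lost without Pa1 F/F replicate 1 (adjusted p = 0.112) or 3 (0.079) and without Amh-pa1-/- replicate 1 (0.0645) or 2 (0.0838). Abcg4 was not tested where every library needed at least 10 counts, as Amh-pa1-/- replicate 2 had 3.

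**Figure D4:**
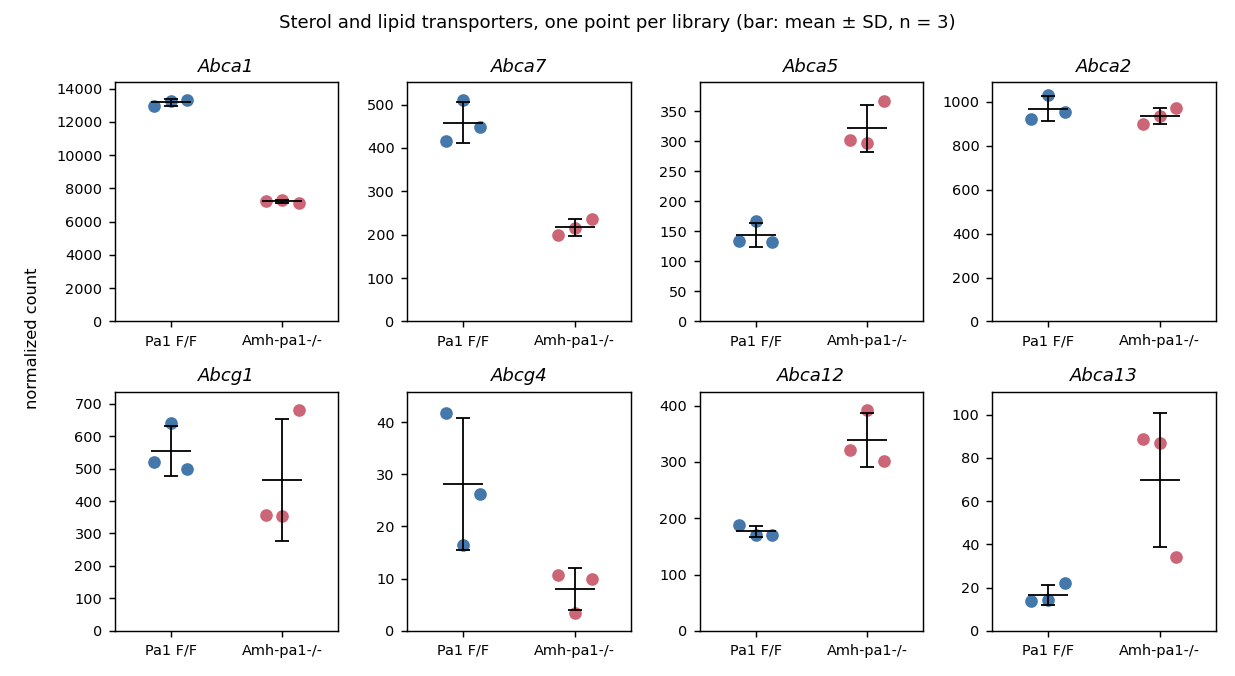
Normalized counts of 8 genes for sterol and lipid transport, 1 point per library, with the mean and SD of the 3 libraries of each genotype and axes from 0. Abca1 and Abca7 lie lower and Abca5 and Abca12 higher in Amh-pa1-/- cells without overlap, and Amh-pa1-/- replicate 3 stands apart for Abcg1 (681.3) and Abca13 (34.1).

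The A genes that were higher were mostly of low level. Abca5, a lysosomal member linked to cholesterol handling, had 134.1, 167.5 and 132.1 normalized counts in control and 301.6, 296.3 and 366.7 in knockout libraries, 2.22-fold higher (log2 fold change 1.15 ± 0.14, adjusted p = 0.00163 by edgeR), and stayed called with each library left out in turn. Abca12, which carries glucosylceramide into lamellar granules of the skin, had 188.5, 170.4 and 171 against 322.1, 393.2 and 301.6, 1.92-fold higher (0.94 ± 0.13, adjusted p = 0.00219 by edgeR), and passed the fold threshold only without Amh-pa1-/- replicate 3 (1.02). Abca13 had 13.6, 14.5 and 22 against 88.8, 86.7 and 34.1, a log2 fold change of 2.06 ± 0.43 (adjusted p = 0.0107 by edgeR, and 0.0929 with the closest pairs summed). It averaged only 0.0685 and 0.286 RPKM. Abca4, known as the retinal flippase for retinylidene lipids, had 30.8, 9.68 and 14.7 against 65.4, 66.5 and 35.1 (1.58 ± 0.46, adjusted p = 0.0354 by edgeR). Its log2 fold change was between 1.27 and 2.19 with single libraries left out, the highest without Pa1 F/F replicate 1. The call was lost without Pa1 F/F replicate 2 (adjusted p = 0.0828) or 3 (0.116) and without Amh-pa1-/- replicate 1 (0.102) or 2 (0.0974).

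Abca5 lies in a block of 5 A genes on chr11:109932190-110337716, all on the minus strand, which did not move as one. Abca6 averaged 391.5 normalized counts in control and 547.3 in knockout cells (log2 fold change 0.48 ± 0.10, adjusted p = 0.00926 by edgeR). Abca9 averaged 11.9 and 21.7 with overlap, Abca8b averaged 124.5 and 116, and Abca8a was not tested. Of the 8 members that the deposited table annotates to cholesterol efflux, 7 were tested, of which Abca7 and Abcg4 were lower and Abca5 and Abca13 higher past both thresholds, and 3, with Abca1, were lower and 2 higher at the adjusted p alone. Of the 7 annotated to phospholipid efflux, all tested, 1 was lower and 1 higher past both thresholds, and 3 were lower and 2 higher at the adjusted p alone. Of all tested genes, 6.56% were lower and 5.44% higher past both thresholds, and 17.1% and 18.2% at the adjusted p alone.

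The remaining B genes described here encode transporters of mitochondria and lysosomes. Abcb8, which lies in the inner mitochondrial membrane and takes part in iron export and potassium transport, had 773.9, 762 and 720.5 normalized counts in control and 455.8, 484.4 and 445.9 in knockout libraries, 1.63-fold lower (log2 fold change -0.70 ± 0.07, adjusted p = 0.000747 by edgeR). Abcb9, a lysosomal peptide transporter related to the TAP proteins of antigen processing, had 51.7, 50.3 and 46.1 against 23.4, 24.8 and 16.0, 2.31-fold lower (-1.20 ± 0.23, adjusted p = 0.00751 by edgeR, and 0.0788 with the closest pairs summed). Abcb10, a mitochondrial transporter needed for heme synthesis, had 1185, 1228 and 1030 against 1211, 1306 and 1510 normalized counts, with overlap and an adjusted p of 0.135 by edgeR.

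Differences were small in most of the D, E and F subfamilies. Abcd3, which imports branched-chain and bile acid precursors into peroxisomes, had 4430, 3998 and 4421 normalized counts in control and 4524, 4734 and 4087 in knockout libraries (log2 fold change 0.05 ± 0.08, adjusted p = 0.61 by edgeR). Abcd4, a partner in lysosomal cobalamin release, averaged 172.3 and 173.6 normalized counts and Abcd2 10.7 and 18.0. Abce1, which splits ribosomes after termination, had 2044, 2065 and 2162 against 2329, 2330 and 2126 (0.11 ± 0.06, adjusted p = 0.165 by edgeR). It passed the adjusted p of edgeR without Amh-pa1-/- replicate 3 (0.16, adjusted p = 0.0233), a fit that keeps only the closest knockout pair. Abcf1, a factor of translation initiation, had 2315, 2485 and 2364 against 2432, 2320 and 2483 (0.01 ± 0.05, adjusted p = 0.856 by edgeR). Abcf3 was the exception, with 847.3, 892.7 and 918.8 against 671.6, 712 and 645.3 normalized counts, 1.31-fold lower (-0.39 ± 0.07, adjusted p = 0.00592 by edgeR). Abcc5, which was lower as well, lies on the same chromosome (Abcf3 on chr16:20548577-20561379 and Abcc5 on chr16:20331303-20426394).

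Genes that work with these transporters were read from lists of known partners, of which 8 of 98 tested genes (8.16%) passed both thresholds, as compared with 12% of all tested genes. At the adjusted p alone 18 (18.4%) were lower and 14 (14.3%) higher, as compared with 17.1% and 18.2%. Of 19 tested partners of sterol export and liver X receptor genes, 2 (10.5%) were lower past both thresholds, as compared with 6.56% of all tested genes. Apoe, an apolipoprotein that accepts cholesterol from Abca1, had 1521, 1471 and 1612 normalized counts in control and 405.1, 380.8 and 256.5 in knockout libraries (log2 fold change -2.14 ± 0.17, adjusted p = 0.000308 by edgeR). Pltp, the phospholipid transfer protein of plasma lipoproteins, had 178.5, 148.1 and 181.4 against 64.4, 56.3 and 56.1 (-1.52 ± 0.15, adjusted p = 0.000666 by edgeR). At the adjusted p alone 4 (21.1%, as compared with 18.2% of all tested genes) were higher, among them Srebf1 (0.19), Srebf2 (0.50) and Osbpl1a (0.73), where the values are log2 fold changes. Srebf1 lost its call without any one of the control libraries or Amh-pa1-/- replicate 1 (adjusted p between 0.0618 and 0.0807 by edgeR). The median of the 19 was -0.03.

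Of 13 tested regulators and membrane anchors of efflux pumps, 0 passed both thresholds by edgeR (1 by DESeq2, 0 by limma-voom), 5 (38.5%) were lower at the adjusted p alone, as compared with 17.1% of all tested genes, and 7 at an unadjusted p under 0.05. Of these 5, the largest difference was that of Hif1a, the hypoxia-inducible factor, at 4053, 4096 and 4156 against 2088, 2139 and 2068 normalized counts (log2 fold change -0.97 ± 0.05, adjusted p = 8.05e-05 by edgeR). The other genes past the adjusted p were Arnt (-0.38), Nfe2l2 (-0.28), Rdx (-0.28) and Slc9a3r1 (-0.35), in log2 fold change, of which Rdx lost its call with any library but Amh-pa1-/- replicate 3 left out (adjusted p between 0.0784 and 0.149 by edgeR) and Slc9a3r1 without Pa1 F/F replicate 1 or 3 or Amh-pa1-/- replicate 1 or 2 (between 0.0747 and 0.144). The xenobiotic receptors Nr1i2 and Nr1i3 had at most 3 counts in any library.

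Solute carriers that move drugs or their metabolites were the other arm of transport examined. Of 15 tested, 3 (20%) were higher past both thresholds, as compared with 5.44% of all tested genes, and 0 were lower (6.56%). Slco2a1, the prostaglandin transporter, had 1034, 860.8 and 1170 normalized counts in control and 4307, 4271 and 2146 in knockout libraries (log2 fold change 1.81 ± 0.27, adjusted p = 0.00338 by edgeR). The peptide transporter Slc15a1 had 6.34, 5.81 and 2.1 against 29.3, 39.4 and 26.1 (2.67 ± 0.39, adjusted p = 0.00305 by edgeR), and Slc29a4, a monoamine and nucleoside transporter, 29.0, 20.3 and 13.6 against 51.7, 59.7 and 37.1 (1.22 ± 0.33, adjusted p = 0.0267 by edgeR). The call of Slc29a4 was lost without Pa1 F/F replicate 2 or 3 or Amh-pa1-/- replicate 1 or 2 (adjusted p between 0.0731 and 0.0827). Of the 15, 3 (20%) were higher and 2 (13.3%) lower at the adjusted p alone, as compared with 18.2% and 17.1% of all tested genes. The lower ones were the nucleoside transporter Slc29a1 (log2 fold change -0.62) and Slco3a1 (-0.44), and Slc29a1 lost its call without Pa1 F/F replicate 1 (adjusted p = 0.0719 by edgeR) or 3 (0.0532).

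Among 18 tested mitochondrial partners of the B subfamily in heme and iron-sulfur synthesis, 2 were lower and 1 was higher past both thresholds (16.7% in all, as compared with 12% of all tested genes). Of the 18, 4 (22.2%) were lower and 3 (16.7%) higher at the adjusted p alone, as compared with 17.1% and 18.2%. Fdxr, the reductase that feeds electrons to ferredoxin, had 1557, 2231 and 1455 normalized counts in control and 413.9, 511.5 and 819.6 in knockout libraries (log2 fold change -1.59 ± 0.28, adjusted p = 0.00578 by edgeR), and ferredoxin Fdx1 had 891.7, 538.3 and 595.7 against 388.5, 341.3 and 250.5 (-1.05 ± 0.24, adjusted p = 0.0144 by edgeR). Fdx1 was under the fold threshold without Pa1 F/F replicate 1 (-0.79) or Amh-pa1-/- replicate 3 (-0.89). Both also serve the cytochrome P450 step of steroid synthesis, and Leydig cell markers were lower in the same libraries. Whether the values of Fdxr and Fdx1 come from such cells was not tested. Alas2, the erythroid enzyme of heme synthesis, had 67.1, 50.3 and 51.4 against 134.7, 147.6 and 632.2 (2.43 ± 0.64, adjusted p = 0.0259 by edgeR), the knockout mean being set largely by replicate 3. It lost its call with limma-voom (adjusted p = 0.0881) and, by edgeR, without Pa1 F/F replicate 1 (adjusted p = 0.0746), 2 (0.0783) or 3 (0.0885), and its log2 fold change was 1.32 without Amh-pa1-/- replicate 3. Of 17 tested peroxisomal partners of the D subfamily and 14 ribosomal partners of the E and F subfamilies, 0 passed both thresholds by edgeR, DESeq2 or limma-voom. At the adjusted p alone, 2 of the peroxisomal genes were lower and 2 higher (11.8% each, and 2 and 3 genes at an unadjusted p under 0.05), and 3 of the ribosomal genes were lower (21.4%) and 2 higher (14.3%, and 3 and 2 genes at an unadjusted p under 0.05). Of the mitochondrial, peroxisomal and ribosomal genes past the adjusted p alone, Cpox, Isca2, Crat, Acaa1a, Hbs1l, Eif2ak4, Gspt2 and Zfp622 each lost the call when at least 1 of the libraries was left out (adjusted p between 0.0507 and 0.0978 by edgeR). The potassium channel partners of the C subfamily were not analysed here.

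Family members under other symbols were kept apart from the 46. Tap1, a peptide transporter of antigen processing in the B subfamily, had 191.2, 1270 and 203.5 normalized counts in control and 200.1, 238.8 and 242.5 in knockout libraries. The high value was that of Pa1 F/F replicate 2 alone, and Tap1 did not pass (adjusted p = 0.215 by edgeR). Tap2 was tested and did not pass either (0 of both at an unadjusted p under 0.05 or by DESeq2 or limma-voom), and Cftr, the chloride channel of the C subfamily, had at most 3 counts in any library.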

How the data were processed

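Total RNA of Sertoli cells was sequenced in 6 libraries, 3 per genotype. Per the labels, reads were aligned to GRCm38 with HISAT2 2.1.0 and reads per gene were counted with HTSeq 0.6.0. The authors deposited these counts without normalization, and whether strand was used in counting is not given in the sources used here, so overlapping and near-identical genes are uncertain. The same table holds the authors' comparison (fold changes and p-values), which was not used. The study names DEGseq, and edgeR was used here in its place.

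The quasi-likelihood test of edgeR 4.0.16 in R 4.3.3 was run without covariates on TMM-normalized counts of genes kept by filterByExpr (at least 10 counts in enough libraries and 15 in total). Benjamini-Hochberg adjustment covered 14919 genes. Calls needed an adjusted p under 0.05 and a log2 fold change of 1 or more in size, as in the study. A shift of all transcripts at once would not be seen after TMM. RPKM used the length of the Ensembl canonical transcript in GENCODE vM39 (GRCm39), and read sharing was found on the same transcripts. Coordinates are those of the deposited table. Values of a few single genes are not reported here, though the genes count in the totals. The steps were run on simulated counts of independent libraries with the same dispersion for all genes. That setting does not cover close pairs of libraries such as those found here. DESeq2 1.42.0 and limma 3.58.1 gave alternatives, and Python 3.11.15 made the tables and plots.

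The members, the lists of partners and markers, the tests and most alternatives were chosen with earlier results of these data known. Values of every library are given for members past both thresholds, for those past the adjusted p alone with a log2 fold change of 0.5 or more in size, for the highest member of each subfamily and for 8 drug and sterol pumps (Abca1, Abcg1, Abcb1a, Abcb1b, Abcg2, Abcc1, Abcc4 and Abcc5). Values of other members and of partner genes under the fold threshold were chosen after they had been seen. Alternatives were limma-voom, the Wald test of DESeq2, its size factors in edgeR, no scaling beyond library size, 2 other filters, the replicate number as a block, each library left out, and the closest pair of libraries of each genotype summed. Reads without molecular identifiers are not independent molecules, so a count of 3 as the floor covers counting error only.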

Additional observations from a re-analysis of the deposited data

How the results depend on the processing

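With the closest pair of libraries of each genotype summed, which leaves 2 per genotype, 455 genes were lower and 428 higher (674 and 708 without the fold threshold). Of the ABC genes 3 were then lower (Abca7, Abcb1a and Abcb1b) and 2 higher (Abca5 and Abcg2), or 5 and 4 without the fold threshold, and 3 partner genes were called. Leaving out single libraries gave 796 to 1216 lower and 670 to 860 higher genes (1689 to 3257 and 1761 to 3360 without the fold threshold, lowest without Pa1 F/F replicate 1 and highest without Amh-pa1-/- replicate 3), 4 to 6 lower and 3 to 5 higher ABC genes (8 to 12 and 6 to 10 without the fold threshold), and 6 to 10 partner genes against 8. The median log2 fold change of the ABC genes was -0.01 to 0.04 when single libraries were left out, -0.03 with limma-voom and with at least 10 counts in every library, 0.06 without a filter and 0.05 with pairs summed, as compared with 0.01. DESeq2's Wald test called 1045 lower and 899 higher genes, as compared with 979 and 812. The cause was not tested.

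Of 293 values for 21 ABC genes under 14 settings, 274 kept direction and side of the call at both thresholds, 16 lost a call, 1 gained one and 2 changed sign. At the adjusted p alone 19 values of 7 genes were lost, among them Abcc1 (0.141) and Abcc5 (0.0848) with pairs summed. There 2 were gained (Abcg1 and Abce1), both without Amh-pa1-/- replicate 3, which leaves only the closest knockout pair. Both changes of sign were those of Abcf1, whose log2 fold change was 0.01 with all libraries (-0.0039 without Pa1 F/F replicate 1 and -0.01 without Amh-pa1-/- replicate 3). Calls of Abca4, Abca13, Abcb9, Abcc3 and Abcg4 were lost with pairs summed. Replicate numbers were not taken to pair the libraries, as the correlations of same-numbered libraries were 0.11, -0.16 and -0.18. With the replicate block, 6 ABC genes were lower and 4 higher, as without it, and 7 partner genes and 842 lower and 716 higher genes in all were called. Low counts limit Abcg4, Abca4 and Abca13.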
